A study of Mus musculus with 11 samples.

Results

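Open chromatin at 47 genes for neuronal adhesion molecules was examined in the lung epithelium of fetal mice. The genes were chosen by family, as IgLON proteins, contactins and their associated proteins, neurexins, neuroligins, teneurins and related cell surface proteins, at a time when differences between the genotypes of these libraries were already known. Their open regions were taken as all ATAC-seq peaks for which 1 of the 47 is the nearest protein-coding gene body, at most 100 kb away. This gave 5171 of 981265 peaks over the 11 lists as deposited, and 481 of 83262 tested regions. Of the 47 genes, 45 had at least 1 region. Cntnap1, which organises the paranodes of myelinated axons, and Lrrtm2, which codes for a postsynaptic neurexin partner, had 0 peaks assigned in the 11 lists. Because the genes were picked with results of the same comparison in view, no test was made over the group, and its counts are given as a description beside those of all regions.

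These proteins sit in the membranes of axons and synapses and bind a partner on the facing cell. Neurexins and LAR-type phosphatases of the axon terminal bind neuroligins and leucine-rich repeat proteins of the receiving cell, teneurins bind latrophilins, and IgLON, contactin, L1, DSCAM and sidekick proteins guide axons and sort contacts through immunoglobulin domains. Many of the genes are among the longest of the mammalian genome. Some are active outside the nervous system too, Cadm1 among them, which codes for an adhesion protein of lung epithelial cells.

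The 5 Prdm3/16KO libraries came from E17.5 fetuses in which floxed Prdm16 and Prdm3 (Mecom) had been deleted with ShhCre, a Cre recombinase expressed from sonic hedgehog, and the 6 Control libraries came from control fetuses of the same age. Cre is made where sonic hedgehog is expressed, which in the developing lung is the epithelium, and all cells were captured with microbeads that bind EpCAM, which epithelial cells carry on their surface. The sources used here do not give the alleles of the controls, the strain, the litters or whether each library stands for 1 animal. Prdm16 and Prdm3 code for related zinc finger proteins that act on chromatin and transcription. ATAC-seq marks DNA that a transposase can reach, so the libraries report open chromatin and not RNA or protein. The lists held 72935 to 85704 peaks in knockouts and 79525 to 112297 in controls, and the read depth is unknown.

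Each list was reduced to its 72935 strongest peaks, the length of the shortest list. A peak received a rank score, 1 for the strongest of its library and falling towards 0 for the weakest, and a library without a peak at a region scored 0. The score is a place in a list and not an amount of DNA cut. A region was tested if at least 3 of the 11 libraries had a peak there, so a region open in 1 genotype alone could enter, and such a region had to differ. Differences are knockout minus control, and a region was called higher or lower where the limma adjusted p was below 0.05 over all 83262 regions. In these bulk samples a region open in fewer cells and a region less open in every cell cannot be told apart.

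Open chromatin at the adhesion genes changed in both directions. Of their 481 regions, 124 (25.8%) were higher in knockouts and 108 (22.5%) were lower, against 17.0% higher and 20.8% lower among all regions. The median difference was -0.0123 at the adhesion genes and -0.0208 over all regions, and called differences had a median size of 0.320 against 0.291. By presence or absence of a peak, Fisher's exact test called 74 of 198 testable regions higher and 40 lower, where 23.3% and 23.9% of all 24732 testable regions were called higher and lower. The groups did not overlap at 147 of the 481 regions, against 22.9% of all regions. Which direction was the more frequent depended on the scaling. With each list ranked over its own length as deposited, 113 regions were higher and 135 lower, so that 54.4% of the called regions were lower in place of 46.6%. Among all called regions the lower share moved too, to 67.3% in place of 55.1%. With scores centred on the mean of each library, 136 were higher and 88 lower, and the lower share was 39.3%, against 45.9% among all called regions.

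The regions lay deep in the genes. Of the 481, 386 (80.2%) were inside a gene body and more than 1 kb from either end, against 41.9% of all regions, 38 were within 1 kb of a gene end and 57 lay between genes. The gene bodies had a median length of 424 kb, from 6.02 to 2271 kb, against 17.2 kb over 21887 protein-coding genes, and 23 of the 47 were over 500 kb long. Inside the gene bodies 97 regions were higher and 94 lower in knockouts, where the background was 19.1% higher and 24.9% lower of 34885 regions. Near gene ends 5 were higher and 2 lower, where the background was 6.61% higher and 9.63% lower of 19712 regions. Between genes 22 of 57 were higher and 12 lower, where the background was 19.5% higher and 23.0% lower of 21026 regions. A smaller share of the regions was open in all 11 libraries, 154 of 481 (32.0%) against 43.8% of all, and their mean score over libraries was 0.355 against 0.420. By class this share was 30.1% against 35.9% inside gene bodies, 50.0% against 73.7% near gene ends and 33.3% against 34.1% between genes. The mean scores of the 3 classes were 0.340 against 0.375, 0.421 against 0.587 and 0.410 against 0.364.

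**Figure D1:**
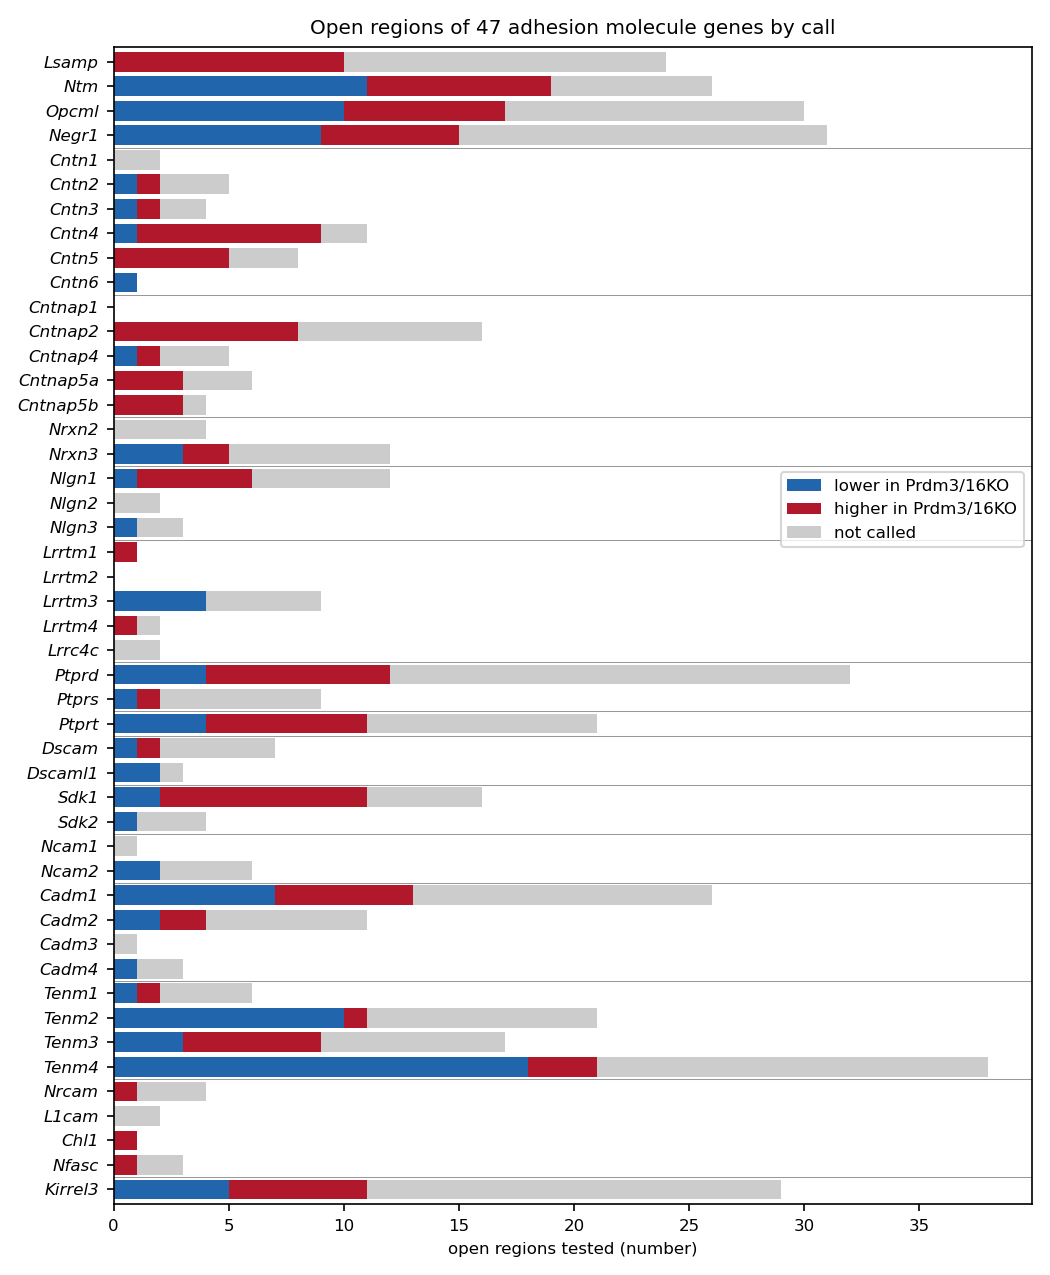
Number of tested regions of each of the 47 genes (bars, x axis), split into regions lower in Prdm3/16KO libraries (blue), higher (red) and not called (grey), with thin lines between families. Lsamp has 10 higher regions and none lower, Tenm4 has 18 lower and 3 higher, and Cntnap1 and Lrrtm2 have no region.

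Both higher and lower regions were found in 21 genes. A further 10 genes held higher regions and none lower, 7 held lower regions and none higher, and 7 held no called region. The 7 without a call were Cntn1, Nrxn2, Nlgn2, Lrrc4c, Ncam1, Cadm3 and L1cam, with 1 to 4 regions each. To give 1 value per gene, the scores of its regions were averaged in each library, and these means were compared with limma over 16248 genes. Of the 45 genes, 12 had a higher and 7 a lower mean in knockouts, against a background of 11% higher and 18.2% lower. The groups did not overlap in 16 of the 45 genes, against 18.9% of all 16248 genes.

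**Figure D2:**
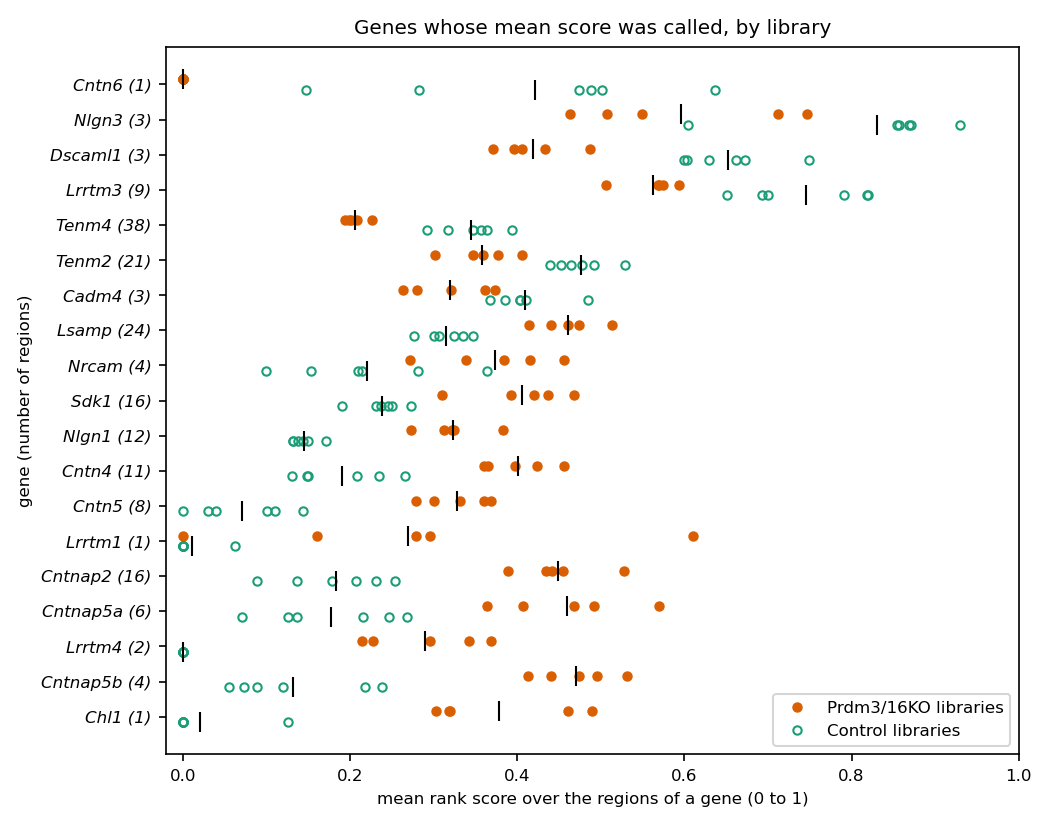
Mean rank score (x axis, 0 to 1) over the regions of each of the 19 genes whose mean was called, 1 point per library, with Prdm3/16KO libraries as filled circles above Control libraries as open circles and a vertical bar at the mean of each group. The number of regions is in brackets. Cntn6 lies at 0 in all 5 knockouts, and Lrrtm4 lies at 0 in all 6 controls.

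Regions near gene ends were examined next. Both ends of a gene were counted, so a region there is not always at a promoter. Of the 45 genes, 26 had a region within 1 kb of a gene end, and the strongest such region of each had a mean score from 0.0381 to 0.999 with a median of 0.452. These were open in all 11 libraries in 15 genes, and 12 had a mean score over 0.5. The end of Cadm2, a synaptic adhesion gene of the CADM family, was among the strongest peaks of every library, at 0.999, 0.999, 1.00, 1.00 and 1.00 in knockouts, against 0.998 at the lowest, 0.998 at the median and 1.00 at the highest in controls (chr16:67620765-67621164). The end regions of Sdk1 (chr5:141241293-141241692), Ncam2 (chr16:81200581-81200980), Cadm1 (chr9:47530088-47530487) and Cntn3 (chr6:102564214-102564613) had mean scores of 0.957, 0.937, 0.898 and 0.904 in knockouts, against 0.956, 0.937, 0.885 and 0.872 in controls, and none of these 5 was called. Ranked by fold enrichment in place of p, the ends of Cadm2 and Sdk1 were higher in knockouts (differences of 0.0992 and 0.0747, limma adjusted p = 0.00277 and 0.00218). Other regions of Cadm1, Cadm2, Cntn3, Ncam2 and Sdk1, away from these ends, were called.

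At the ends of 6 genes, 7 regions were called. At Cntnap5a, a contactin-associated gene, the end region (chr1:115684476-115684875) scored 0.417, 0.547, 0.461, 0.557 and 0.580 in knockouts, against 0 at the lowest, 0.0732 at the median and 0.240 at the highest in controls, a difference of 0.415 (limma adjusted p = 0.000154). Every knockout lay above every control, although the call ended with the lists at 0.5 of their length (difference 0.0734, limma adjusted p = 0.0963). At Chl1, of the L1 family, the single region of the gene (chr6:103510714-103511113) scored 0.461, 0.319, 0.320, 0.303 and 0.490 in knockouts, while 5 of 6 controls had no peak and the highest control scored 0.125 (difference 0.358, limma adjusted p = 0.000194). No knockout overlapped a control, and the single control peak had its summit outside the window. As a gene mean with lists as deposited, the Chl1 difference of 0.180 was not called (limma adjusted p = 0.0557). At Ptprd, which codes for a presynaptic phosphatase receptor, the end region (chr4:78211754-78212153) scored 0.727, 0.829, 0.744, 0.790 and 0.813 in knockouts, against 0.363 at the lowest, 0.557 at the median and 0.643 at the highest in controls (difference 0.251, limma adjusted p = 0.00172), again without overlap.

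The other called ends were weaker. At Cntnap5b (chr1:99772137-99772536) the knockouts scored 0.262, 0.158, 0.404, 0 and 0.342 and no control had a peak (limma adjusted p = 0.0114), so that 1 knockout overlapped the controls. At Ptprs (chr17:56476270-56476669), the relative of Ptprd, the knockouts scored 0.329, 0.280, 0, 0.183 and 0.272, and 5 of 6 controls had no peak among their strongest 72935, with the highest at 0.0350 (limma adjusted p = 0.0104). In the lists as deposited 3 of 6 controls had a peak there. That call ended with the lists as deposited (difference 0.141, limma adjusted p = 0.255) and with ranks by fold enrichment (difference 0.0638, limma adjusted p = 0.123). At Tenm2, 2 neighbouring end regions were lower in knockouts, chr11:37236271-37236670 with a mean of 0.571 against 0.684 in controls and chr11:37236745-37237144 with 0.226 against 0.429 (limma adjusted p = 0.0487 and 0.0286). Both Tenm2 calls ended where 1 of several single libraries was left out, as without Prdm3/16KO replicate 1 (difference -0.0826 and -0.179, limma adjusted p = 0.115 and 0.0710). They also ended with ranks by fold enrichment (differences of -0.0181 and -0.0789, limma adjusted p = 0.786 and 0.370).

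The called ends of Chl1, Cntnap5b and Ptprs overlapped a promoter window of the RefSeq table for mm10, and their 250 bases before the start are shown because these are the starts at which a peak was seen in 4 or 5 of 5 knockouts and in at most 1 of 6 controls among the strongest 72935 peaks. They are the windows chr6:103510626-103510875 on the plus strand for Chl1, chr1:99772151-99772400 on the plus strand for Cntnap5b and chr17:56476481-56476730 on the minus strand for Ptprs. Each is written 5′ to 3′ on the strand of its gene.
Chl1: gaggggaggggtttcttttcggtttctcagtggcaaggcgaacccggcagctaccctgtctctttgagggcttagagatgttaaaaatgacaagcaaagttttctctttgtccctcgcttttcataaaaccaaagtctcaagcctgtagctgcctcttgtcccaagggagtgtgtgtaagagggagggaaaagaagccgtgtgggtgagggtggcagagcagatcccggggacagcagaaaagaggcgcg
Cntnap5b: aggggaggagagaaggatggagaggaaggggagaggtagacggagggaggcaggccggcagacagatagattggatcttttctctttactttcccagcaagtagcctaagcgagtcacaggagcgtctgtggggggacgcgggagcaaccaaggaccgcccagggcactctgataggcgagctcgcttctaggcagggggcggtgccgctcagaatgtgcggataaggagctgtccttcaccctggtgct
Ptprs: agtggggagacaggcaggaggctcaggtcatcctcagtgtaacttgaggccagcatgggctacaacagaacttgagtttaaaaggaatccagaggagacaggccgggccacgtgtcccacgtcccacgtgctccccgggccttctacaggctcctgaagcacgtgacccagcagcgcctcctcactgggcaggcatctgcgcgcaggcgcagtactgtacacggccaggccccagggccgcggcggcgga
The summit of the region lay 38 bases after the start of Chl1, 64 bases before that of Cntnap5b (-64) and 10 bases after that of Ptprs. Neither CACTNNAG, a core of sites for the lung factor NKX2-1, nor AAGATAA, a core of sites for the first zinc finger domain of MECOM, was found in them on either strand, so no letter is in capitals. The same letters were found in 12.9% and 3.10% of all 32851 promoter windows of 250 bases, and in 4 and 1 of 51 windows of 36 adhesion genes. A window without these letters says nothing of binding by either factor.

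The IgLON genes Lsamp, Ntm, Opcml and Negr1 code for lipid-anchored immunoglobulin proteins that regulate axon growth and synapse number. Together they held 111 regions, 31 (27.9%) higher and 30 (27.0%) lower in knockouts, against 17.0% higher and 20.8% lower of all regions. Their median difference was -0.0125, against -0.0208 over all regions. Lsamp (gene 268890, chr16:39984254-42181679) stood at 10 higher and 0 lower of 24 regions, and no region of it was lower either with lists as deposited (11 higher of 29) or with centred scores (14 higher of 24). Its mean was 0.414, 0.473, 0.460, 0.514 and 0.440 in knockouts, against 0.277 at the lowest, 0.315 at the median and 0.348 at the highest in controls, a difference of 0.145 (limma adjusted p = 0.000496). Every knockout lay above every control. The call of the Lsamp mean ended with the lists at 0.5 of their length (difference 0.0991, limma adjusted p = 0.0564) and where at least 6 libraries had to have a peak (difference 0.0593, limma adjusted p = 0.191). The greatest rise in Lsamp was at chr16:40994786-40995185, inside the gene body, at 0.557, 0.657, 0.689, 0.608 and 0.711 in knockouts with no peak in any control (limma adjusted p = 2.70e-07). Its end at chr16:39984121-39984520 was not called (0.659 against 0.700), and 5 of its regions had a peak in all knockouts and in no control.

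Ntm and Opcml, which lie next to each other on chromosome 9, and Negr1 on chromosome 3 changed both ways. Ntm (gene 235106, chr9:28994749-29963269) had 8 higher and 11 lower of 26 regions, Opcml (gene 330908, chr9:27790716-28925410) 7 and 10 of 30, and Negr1 (gene 320840, chr3:156561790-157316464) 6 and 9 of 31. Their means were not called, with differences of -0.0490, -0.0177 and -0.0297 and limma adjusted p of 0.0687, 0.667 and 0.285. Where at least 6 libraries had to have a peak, Ntm and Negr1 were called lower (differences of -0.132 and -0.130, limma adjusted p = 0.000537 and 0.00155). That filter drops every region open in knockouts alone and keeps regions open in all 6 controls alone, so it pushes a mean downwards. Negr1 was also called lower with lists as deposited (difference -0.0979, limma adjusted p = 0.0218), and Ntm without Control replicate 5 (difference -0.0550, limma adjusted p = 0.0498). Within Negr1 the region at chr3:156895619-156896018 scored 0.834, 0.893, 0.887, 0.852 and 0.774 in knockouts and had no peak in any control (limma adjusted p = 1.82e-08). Further along the same gene, the region at chr3:157146117-157146516 scored 0, 0, 0.251, 0.348 and 0 in knockouts, against 0.655 at the lowest, 0.715 at the median and 0.807 at the highest in controls (limma adjusted p = 1.25e-05). The 2 regions of Negr1 thus moved in opposite directions without overlap of the groups. In Opcml the region at chr9:28594230-28594629 scored 0, 0, 0, 0.172 and 0.267 in knockouts, against 0.512 at the lowest, 0.737 at the median and 0.767 at the highest in controls (limma adjusted p = 1.40e-05).

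The greatest fall by score in Ntm rested on how a peak was matched to its region. At chr9:29092960-29093359 the scores were 0.0955, 0.176, 0.141, 0.00535 and 0.220 in knockouts, against 0.850 at the lowest, 0.858 at the median and 0.893 at the highest in controls (difference -0.739, limma adjusted p = 3.15e-08). All 5 knockouts had a summit inside the window, while in all 6 controls the scored peak had its summit outside and only reached into it. When a peak had to have its summit inside, the difference was 0.128 (limma adjusted p = 0.0156), so the direction turned. A Tenm2 region at chr11:36000486-36000885 scored 0.146, 0.00842, 0.00201, 0 and 0.179 in knockouts, against 0.0341 at the lowest, 0.957 at the median and 0.963 at the highest in controls, where 1 of 6 summits lay inside, and its difference of -0.732 (limma adjusted p = 0.00247) became 0.0615 with the summit inside (limma adjusted p = 0.202). A Lrrtm3 region at chr10:63971849-63972248, open in 4 of 6 controls with no summit inside, had a difference of -0.601 (limma adjusted p = 0.0404), and of 0.0530 with the summit inside (limma adjusted p = 0.128). Of the 232 called regions, 100 of 108 lower and 117 of 124 higher ones had the summit of every scored peak inside the window.

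**Figure D3:**
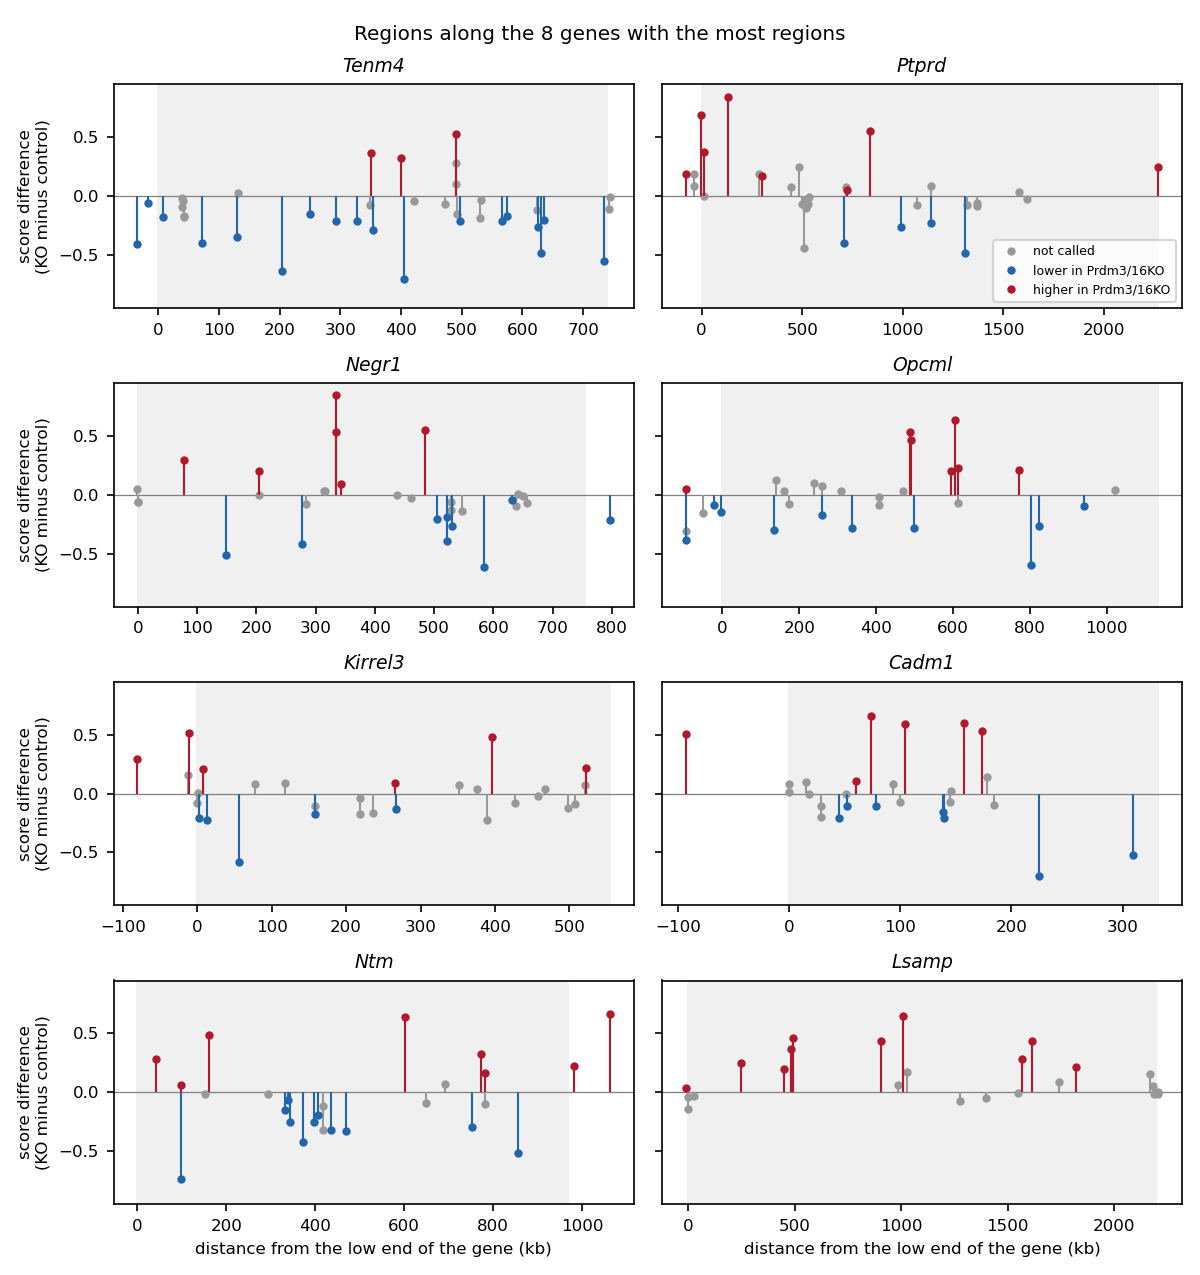
Score difference (y axis, Prdm3/16KO minus Control) of each region against its distance from the low-coordinate end of the gene (x axis, kb) for the 8 genes with the most regions; grey shading marks the gene body, blue points are lower, red points higher and grey points not called. In Tenm4 lower regions run from -34.7 to 734 kb, and in Lsamp all called regions are higher.

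Contactins are lipid-anchored axonal proteins, and the contactin-associated proteins are transmembrane partners that resemble neurexins. Of 31 contactin regions 15 (48.4%) were higher and 4 (12.9%) lower, with a median difference of 0.0627. Of 31 contactin-associated regions 15 (48.4%) were higher and 1 (3.23%) lower, with a median difference of 0.233. Of all regions 17.0% were higher and 20.8% lower, with a median difference of -0.0208. More regions were higher than lower in both families with lists as deposited (14 and 5, then 15 and 2), with ranks by fold (14 and 3, then 13 and 2), with the lists at 0.5 of their length (5 and 1, then 8 and 1) and with centred scores (15 and 3, then 17 and 1). In the same order, all regions gave 11469 higher and 23653 lower, 13125 and 13814, 8251 and 8978, and 16864 and 14293. Where at least 6 libraries had to have a peak, a filter that drops every region open in knockouts alone, contactins had 3 higher and 3 lower.

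Cntn4 (gene 269784, chr6:105677632-106700141) had 8 higher and 1 lower of 11 regions. Its mean was 0.365, 0.360, 0.397, 0.424 and 0.456 in knockouts, against 0.131 at the lowest, 0.179 at the median and 0.266 at the highest in controls (difference 0.211, limma adjusted p = 0.000383), without overlap. Cntn5 (gene 244682, chr9:9634223-10904775) had 5 higher and 0 lower of 8 regions, with a mean of 0.301, 0.369, 0.360, 0.279 and 0.332 in knockouts, against 0 at the lowest, 0.0700 at the median and 0.143 at the highest in controls (difference 0.257, limma adjusted p = 0.000157). Each Cntn5 knockout value was above each control value, and 4 of its regions had a peak in all knockouts and in no control. The strongest of these, at chr9:9938658-9939057, scored 0.742, 0.674, 0.732, 0.756 and 0.754 in knockouts (limma adjusted p = 4.85e-08). Where a peak in at least 6 libraries was required, the Cntn4 mean was no longer called (difference 0.0158, limma adjusted p = 0.868; with the lists at 0.5 of their length 0.0393, limma adjusted p = 0.378) and the difference of Cntn5 was -0.0947 (limma adjusted p = 0.509).

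Other contactins moved otherwise. Cntn6 (gene 53870, chr6:104492662-104863406) had a single region, at chr6:104563968-104564367, with no peak in any knockout and 0.147 at the lowest, 0.481 at the median and 0.637 at the highest in controls (difference -0.422, limma adjusted p = 0.000785). That region was tested because of control peaks alone, so it had to differ. Cntn3 had 1 higher and 1 lower of 4 regions, both outside the gene body. The higher one, 24882 bp away at chr6:102589296-102589695, scored 0.526, 0.646, 0.679, 0.626 and 0.712 in knockouts and had no peak in controls (limma adjusted p = 3.71e-07). The lower one, 3764 bp from the other end at chr6:102159340-102159739, had no peak in knockouts and a peak in 5 of 6 controls, with a median of 0.539 (limma adjusted p = 0.00333), and was not called with the lists at 0.5 of their length (difference -0.145, limma adjusted p = 0.117). Cntn2, an axonal protein of myelinated fibres, had 1 higher and 1 lower of 5 regions, and Cntn1, its relative, had 2 regions and no call.

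Cntnap2 (gene 66797, chr6:45060061-47301393), which codes for a protein that gathers potassium channels along myelinated axons, had 8 higher and 0 lower of 16 regions, and 1 lower of 17 with lists as deposited. Its mean was 0.455, 0.527, 0.441, 0.434 and 0.389 in knockouts, against 0.0889 at the lowest, 0.193 at the median and 0.254 at the highest in controls (difference 0.267, limma adjusted p = 0.000149). No knockout overlapped a control. Inside the gene, chr6:45523744-45524143 scored 0.809, 0.799, 0.828, 0.855 and 0.875 in knockouts, against 0 in 4 of 6 controls and 0.411 in the highest (limma adjusted p = 9.44e-06). Beyond its far end, 37043 bp away at chr6:47338236-47338635, knockouts scored 0.815, 0.730, 0.730, 0.724 and 0.803 and no control had a peak (limma adjusted p = 4.20e-08).

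The paralogs Cntnap5a (gene 636808, chr1:115684737-116587323) and Cntnap5b (gene 241175, chr1:99772246-100490599) each had 3 higher and 0 lower regions, of 6 and 4. Cntnap5a averaged 0.407, 0.492, 0.468, 0.363 and 0.570 in knockouts, against 0.0702 at the lowest, 0.176 at the median and 0.268 at the highest in controls (difference 0.283, limma adjusted p = 0.000620). Cntnap5b averaged 0.441, 0.413, 0.531, 0.474 and 0.496 in knockouts, against 0.0546 at the lowest, 0.104 at the median and 0.238 at the highest in controls (difference 0.339, limma adjusted p = 5.99e-05). In both genes every knockout lay above every control, although for Cntnap5b the call ended where at least 6 libraries had to have a peak (difference 0.136, limma adjusted p = 0.180). The greatest rise of all 481 regions was inside Cntnap5b, at chr1:100254900-100255299, with 0.824, 0.869, 0.835, 0.888 and 0.845 in knockouts and no peak in any control, even in the lists as deposited (difference 0.852, limma adjusted p = 1.39e-08). The region was tested because of knockout peaks alone, so it had to differ. The deposited fold enrichment of that summit over its local background was 17.9 to 22.8 in the knockouts. Cntnap4 had 1 higher and 1 lower of 5 regions and no called mean (difference -0.0289, limma adjusted p = 0.605), but with the lists at 0.5 of their length its mean was called lower (difference -0.188, limma adjusted p = 0.00482).

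The presynaptic neurexins showed fewer calls. Nrxn3 (gene 18191, chr12:88722701-90334935) had 2 higher and 3 lower of 12 regions, and Nrxn2 had none called of 4. Nrxn3 averaged 0.328 ± 0.0289 in knockouts and 0.363 ± 0.0482 in controls (SD, n = 5 and 6), and this difference of -0.0352 was not called (limma adjusted p = 0.347). At chr12:89049241-89049640, 4 of 5 knockouts scored 0.467 to 0.573 and the other had no peak, while no control had one (limma adjusted p = 0.00228). At chr12:88981298-88981697 no knockout and 5 of 6 controls had a peak, with a control median of 0.453 (limma adjusted p = 0.00341). Neither of these Nrxn3 regions was called with the lists at 0.5 of their length (differences of 0.0603 and -0.0650, limma adjusted p = 0.141 and 0.211).

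Among the postsynaptic neuroligins, which bind neurexins, Nlgn1 (gene 192167, chr3:25421808-26332866) had 5 higher and 1 lower of 12 regions. Its mean was 0.325, 0.383, 0.272, 0.313 and 0.322 in knockouts, against 0.132 at the lowest, 0.141 at the median and 0.171 at the highest in controls (difference 0.179, limma adjusted p = 0.000282), without overlap. This mean rested on the list length: as deposited, 5 regions were higher and 6 lower, and the difference of 0.0573 was not called (limma adjusted p = 0.382). The strongest rise, at chr3:25513990-25514389, was 0.736, 0.829, 0.835, 0.794 and 0.755 in knockouts, against 0 in 4 of 6 controls and 0.0252 in the highest (limma adjusted p = 3.33e-08). Nlgn3 (gene 245537, chrX:101299179-101321350) had 1 lower of 3 regions and a mean of 0.747, 0.712, 0.549, 0.508 and 0.464 in knockouts, against 0.605 at the lowest, 0.863 at the median and 0.929 at the highest in controls (difference -0.235, limma adjusted p = 0.0176). Its groups overlapped, and the call ended with lists as deposited (difference -0.145, limma adjusted p = 0.131). Nlgn2, of inhibitory synapses, had 2 regions and no call.

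The Lrrtm genes code for leucine-rich repeat proteins that are further postsynaptic partners of neurexins. Lrrtm3 (gene 216028, chr10:63928497-64090255) had 4 lower and 0 higher of 9 regions, with 1 higher by fold rank. Its mean was 0.575, 0.568, 0.593, 0.569 and 0.506 in knockouts, against 0.650 at the lowest, 0.745 at the median and 0.820 at the highest in controls (difference -0.183, limma adjusted p = 0.00226). All knockouts lay below all controls, but the call ended with lists as deposited (difference -0.106, limma adjusted p = 0.0703). At chr10:63979396-63979795, inside the gene, 1 knockout scored 0.104 and the other 4 had no peak, against 0.651 at the lowest, 0.691 at the median and 0.785 at the highest in controls (limma adjusted p = 1.51e-07). Lrrtm4 had 2 regions, with a mean of 0.214, 0.342, 0.368, 0.228 and 0.295 in knockouts and 0 in all 6 controls (limma adjusted p = 6.24e-05), and the called one lay 76552 bp away at chr6:79942106-79942505. Both Lrrtm4 regions were tested because of knockout peaks alone, so this mean had to differ. Lrrtm1 had 1 region, at chr6:77242497-77242896, which scored 0.160, 0, 0.279, 0.296 and 0.610 in knockouts, against 0 in 5 of 6 controls and 0.0627 in the highest (limma adjusted p = 0.0281 as a region and 0.0364 as a gene mean). The call of the Lrrtm1 gene mean ended where any of 7 single libraries was left out, for example Control replicate 1 (difference 0.257, limma adjusted p = 0.0613), and 1 knockout without a peak overlapped the controls. With lists as deposited the Lrrtm1 region was not called either (difference 0.264, limma adjusted p = 0.0730). Lrrc4c, which codes for a netrin-G ligand, had 2 regions and no call.

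The phosphatase receptors Ptprd and Ptprs organise presynaptic terminals, and Ptprt binds its own kind on facing cells. Ptprd (gene 19266, chr4:75941237-78211742), at 2271 kb the longest of the 47 genes, had 8 higher and 4 lower of 32 regions, and its mean was not called (difference 0.0544, limma adjusted p = 0.144). With centred scores it was (difference 0.0741, limma adjusted p = 0.0319). At chr4:76072703-76073102 inside the gene, knockouts scored 0.847, 0.871, 0.820, 0.851 and 0.850 and no control had a peak among its strongest 72935 (difference 0.848, limma adjusted p = 1.37e-08), although 1 control had one in its list as deposited. Ptprt (gene 19281, chr2:161521988-162661147) had 7 higher and 4 lower of 21 regions and a mean of 0.296 ± 0.0199 in knockouts and 0.237 ± 0.0324 in controls (SD, n = 5 and 6) that was not called (limma adjusted p = 0.0778). With centred scores the Ptprt mean was called higher (difference 0.0789, limma adjusted p = 0.0215). The same call was made by fold rank, with merged peaks and with summits inside only (limma adjusted p = 0.0376, 0.0465 and 0.0317). It was also made by limma without its options and without Control replicate 6 (limma adjusted p = 0.0385 and 0.0365). In 3 Ptprt regions all knockouts and no control had a peak, most strongly at chr2:161545310-161545709, where knockouts scored 0.367, 0.701, 0.608, 0.677 and 0.573 (limma adjusted p = 5.92e-06). At chr2:161660232-161660631 in the same gene, the knockouts scored 0.219, 0.342, 0, 0.343 and 0, against 0.701 at the lowest, 0.744 at the median and 0.777 at the highest in controls (limma adjusted p = 2.01e-05). Ptprs had 1 higher and 1 lower of 9 regions.

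Dscam and Dscaml1 code for receptors with which neurites avoid their own kind, and Sdk1 and Sdk2 for receptors that match synaptic partners in the retina. Sdk1 (gene 330222, chr5:141241497-142215586) had 9 higher and 2 lower of 16 regions, and 6 higher and 2 lower with lists as deposited. Its mean was 0.392, 0.468, 0.310, 0.420 and 0.437 in knockouts, against 0.190 at the lowest, 0.241 at the median and 0.273 at the highest in controls (difference 0.168, limma adjusted p = 0.00107), without overlap. At chr5:141506742-141507141 knockouts scored 0.781, 0.741, 0.705, 0.808 and 0.711 and no control had a peak (limma adjusted p = 4.70e-08). Nearby, at chr5:141467958-141468357, knockouts scored 0.682, 0.767, 0.682, 0.736 and 0.738, against 0 in 5 of 6 controls and 0.102 in the other (limma adjusted p = 1.06e-07). Sdk2 had 1 lower and 0 higher of 4 regions.

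Dscam had 1 higher and 1 lower of 7 regions. The higher one, at chr16:96857710-96858109, scored 0.770, 0.725, 0.756, 0.707 and 0.809 in knockouts with no peak in any control (limma adjusted p = 4.21e-08). Dscaml1 (gene 114873, chr9:45427433-45753713) had 2 lower of 3 regions and a mean of 0.406, 0.371, 0.396, 0.487 and 0.433 in knockouts, against 0.599 at the lowest, 0.645 at the median and 0.750 at the highest in controls (difference -0.234, limma adjusted p = 0.000241). The groups did not overlap, but its 2 called windows lie next to each other and read the same peak in all controls and in 3 knockouts, so they are not separate evidence. With the lists at 0.5 of their length the Dscaml1 mean was not called (difference -0.0381, limma adjusted p = 0.554).

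In the NCAM family, 2 of 6 Ncam2 regions were lower and none higher, both between genes, and the single Ncam1 region, at its end, had a peak in 1 knockout and 2 controls and was not called. L1 family genes code for axon guidance receptors that anchor to the membrane skeleton. Beside Chl1, Nrcam had 1 higher of 4 regions and Nfasc, a gene of the node of Ranvier and axon initial segment, 1 higher of 3. The Nrcam region at chr12:44501764-44502163 scored 0.661, 0.802, 0.776, 0.677 and 0.656 in knockouts with no peak in any control among the strongest 72935 (limma adjusted p = 1.22e-07). The Nrcam mean was 0.373 ± 0.0712 in knockouts and 0.221 ± 0.0933 in controls (SD, n = 5 and 6), with overlap of the groups (limma adjusted p = 0.0321). That call ended where any of 7 single libraries was left out, as without Prdm3/16KO replicate 2 (limma adjusted p = 0.0819), and with lists as deposited (difference 0.0580, limma adjusted p = 0.411). L1cam itself had 2 regions and no call.

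CADM proteins join like cells by homophilic and mixed contacts. Cadm1 (gene 54725, chr9:47530170-47862280) had 6 higher and 7 lower of 26 regions, and its mean was not called (difference 0.0349, limma adjusted p = 0.238). The Cadm1 mean was called higher with merged peaks (difference 0.0577, limma adjusted p = 0.0214) and with summits inside the window only (difference 0.0512, limma adjusted p = 0.0178). At chr9:47755088-47755487, inside the gene, 1 knockout scored 0.109 and the other 4 had no peak, against 0.595 at the lowest, 0.743 at the median and 0.789 at the highest in controls (difference -0.696, limma adjusted p = 2.68e-07). A second Cadm1 region, at chr9:47839377-47839776, had no peak in knockouts and 0.422 at the lowest, 0.520 at the median and 0.624 at the highest in controls (limma adjusted p = 4.08e-06), and the groups did not overlap at either. With the lists at 0.5 of their length this second region was not called (difference -0.0839, limma adjusted p = 0.155). Cadm2 had 2 higher and 2 lower of 11 regions. Its region at chr16:66970916-66971315 was open in all libraries and scored 0.945, 0.934, 0.954, 0.952 and 0.934 in knockouts, against 0.378 at the lowest, 0.462 at the median and 0.596 at the highest in controls (limma adjusted p = 4.80e-07). Cadm4 had 1 lower of 3 regions, and the call of its mean (difference -0.0889, limma adjusted p = 0.0313) ended with centred scores (limma adjusted p = 0.101) and where any of 6 single libraries was left out, as without Control replicate 1 (limma adjusted p = 0.0584). The 1 region of Cadm3 was not called.

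Teneurins are large transmembrane proteins that bind latrophilins across the synapse. Of 82 teneurin regions 11 (13.4%) were higher and 32 (39.0%) lower, against 17.0% higher and 20.8% lower of all regions. Their median difference was -0.0926, against -0.0208 over all regions. More were lower than higher with lists as deposited (37 lower and 8 higher), by fold rank (25 and 8), with the lists at 0.5 of their length (19 and 5) and with centred scores (27 and 11). In the same order, all regions gave 23653 lower and 11469 higher, 13814 and 13125, 8978 and 8251, and 14293 and 16864. Tenm4 (gene 23966, chr7:96171244-96911093), with 38 regions the most of the 47 genes, had 3 higher and 18 lower. Its mean was 0.194, 0.208, 0.199, 0.227 and 0.202 in knockouts, against 0.292 at the lowest, 0.352 at the median and 0.394 at the highest in controls (difference -0.139, limma adjusted p = 0.000784). All knockouts lay below all controls. The lower regions of Tenm4 were spread over the gene, from a position of -34.7 kb, outside its low end, to 734 kb into its 739.9 kb, and the 3 higher ones lay between 351 and 490.3 kb. At chr7:96575333-96575732 no knockout had a peak and controls scored 0.552 at the lowest, 0.700 at the median and 0.861 at the highest (difference -0.705, limma adjusted p = 8.08e-07). At chr7:96374022-96374421 knockouts scored 0.133, 0, 0, 0 and 0.251, against 0.663 at the lowest, 0.694 at the median and 0.811 at the highest in controls (limma adjusted p = 1.67e-06). A region near the far end of the gene, at chr7:96904970-96905369, likewise had no peak in any knockout, against 0.411 at the lowest, 0.532 at the median and 0.690 at the highest in controls (limma adjusted p = 5.28e-06), a call that ended with the lists at 0.5 of their length (difference -0.131, limma adjusted p = 0.113).

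Tenm2 (gene 23964, chr11:36006656-37237053) had 1 higher and 10 lower of 21 regions. Its mean was 0.302, 0.359, 0.377, 0.347 and 0.406 in knockouts, against 0.439 at the lowest, 0.471 at the median and 0.529 at the highest in controls (difference -0.118, limma adjusted p = 0.00310), without overlap. Beside the region at 36000486 described above, the greatest fall was at chr11:36036345-36036744, where 1 knockout scored 0.157 and the other 4 had no peak, against 0.506 at the lowest, 0.572 at the median and 0.706 at the highest in controls (limma adjusted p = 3.56e-06). Tenm3 (gene 23965, chr8:48225665-49522824) changed both ways, with 6 higher and 3 lower of 17 regions, and its mean differed by -0.00201 (limma adjusted p = 0.971). With the lists at 0.5 of their length the Tenm3 mean was called higher (difference 0.105, limma adjusted p = 0.0291). No knockout had a peak at chr8:49357643-49358042 or at chr8:49225043-49225442, where controls scored 0.634 at the lowest, 0.656 at the median and 0.773 at the highest, and 0.461 at the lowest, 0.667 at the median and 0.710 at the highest (limma adjusted p = 1.28e-07 and 9.13e-07). No control had a peak at chr8:48761195-48761594, where knockouts scored 0.778, 0.852, 0.758, 0.901 and 0.817 (limma adjusted p = 2.82e-08). Tenm1 had 1 higher and 1 lower of 6 regions. Its lower region, at chrX:42700278-42700677, scored 0.327 in 1 knockout and 0 in the other 4, against 0.550 at the lowest, 0.743 at the median and 0.769 at the highest in controls (limma adjusted p = 6.70e-06).

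Kirrel3 (gene 67703, chr9:34485853-35040807), which codes for an immunoglobulin protein of the nephrin family that acts in synapse formation, had 6 higher and 5 lower of 29 regions and no called mean (difference -0.00179, limma adjusted p = 0.967). At chr9:34541566-34541965 no knockout had a peak and controls scored 0.414 at the lowest, 0.620 at the median and 0.702 at the highest (limma adjusted p = 4.24e-06). Near its low end, 11415 bp outside the gene at chr9:34474238-34474637, knockouts scored 0.498, 0.575, 0.526, 0.602 and 0.416, against 0 in 5 of 6 controls (limma adjusted p = 3.26e-06), and the call ended with the lists at 0.5 of their length (difference 0.0810, limma adjusted p = 0.107).

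Some regions were open in every library of 1 genotype and in none of the other. They were tested because of peaks of that genotype alone, so they had to differ. For every such region named above, the limma adjusted p adds no support. Of the 481 regions, 45, in 20 genes, had a peak in all 5 knockouts and in no control, against 3.89% of all regions. Another 16, in 11 genes, had a peak in all 6 controls and in no knockout, against 2.94% of all regions. Of the 45, 35 lay inside gene bodies, 10 between genes and 0 within 1 kb of a gene end, and of the 16, 15 lay inside and 1 between. The mean score was 0.207 to 0.852 with a median of 0.551 in knockouts for the 45, and 0.187 to 0.705 with a median of 0.418 in controls for the 16. In the lists as deposited, 41 of the 45 still had no peak in any control and all 16 had none in any knockout.

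**Figure D4:**
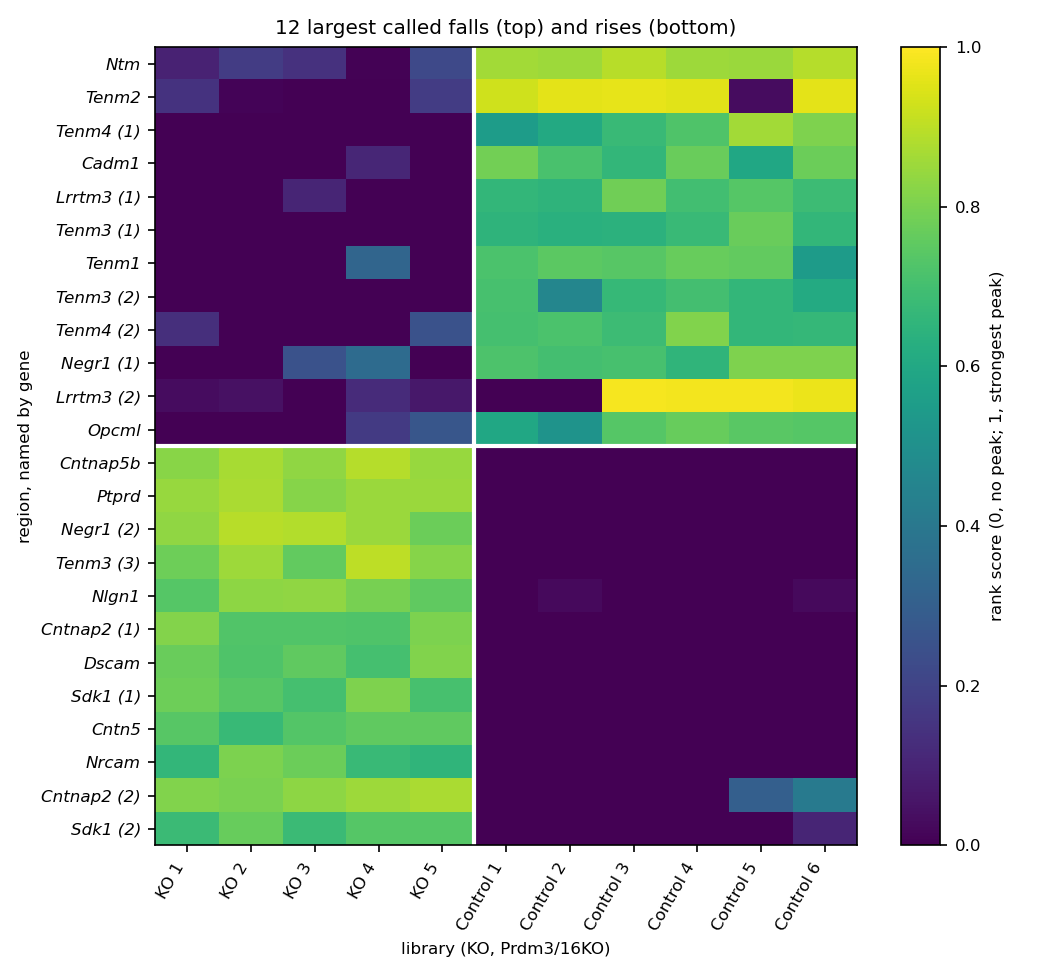
Rank score (colour, 0 for no peak to 1 for the strongest peak) of the 12 called regions with the greatest fall (top) and the 12 with the greatest rise (bottom) in each Prdm3/16KO library (left) and Control library (right). Of the 12 rises, 9 have no peak in any control, and in the Tenm2 and Lrrtm3 (2) rows the controls differ among themselves.

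The limit of 100 kb left out a few regions near the genes. The 3 farthest regions inside it lay 95802 and 95294 bp from Opcml and 94899 bp from Ntm, with mean scores of 0.941, 0.279 and 0.667 in knockouts, against 0.891, 0.666 and 0 in controls. The 3 nearest beyond it lay 100665 bp from Chl1, 100809 bp from Cadm1 and 100991 bp from Ptprd, with mean scores of 0.151, 0.299 and 0.177 in knockouts and 0 in controls. Within 10 kb of the genes, 103 regions were higher and 100 lower of 437, against 14.9% higher and 19.6% lower of all 61205 regions within 10 kb of a gene.

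By library, the adhesion genes took 0.554 ± 0.0147% of the strongest 72935 peaks in knockouts and 0.481 ± 0.0426% in controls (SD, n = 5 and 6). The single shares were 0.533%, 0.564%, 0.561%, 0.568% and 0.543% in knockouts, against 0.437% at the lowest, 0.471% at the median and 0.544% at the highest in controls, so that 1 control lay within the range of the knockouts. The mean score over the 481 regions was 0.366 ± 0.0118 in knockouts and 0.346 ± 0.0311 in controls, while that over all regions was 0.410 ± 0.0129 in knockouts and 0.429 ± 0.0177 in controls. Control replicate 6, with the longest list, had the highest share and the highest mean score of the controls.

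Markers of the cell types that the preparation could hold were read at their gene ends, as the sum over a list of the strongest end region of each gene. Epithelial markers, with 9 of 10 genes open and Cldn6 at 0, summed to 7.01 to 7.46 in knockouts and 7.10 to 7.69 in controls. Neuronal markers, 5 of 10 open, summed to 2.16 to 3.13 in knockouts and 2.03 to 2.49 in controls, with Elavl3, Stmn2, Rbfox3 and Prph among those at 0 in every library. Schwann cell markers, 5 of 8 open, summed to 1.95 to 2.49 in knockouts and 2.19 to 2.51 in controls, with Sox10 and Fabp7 among those at 0. Neuroendocrine markers, 6 of 10 open, summed to 2.82 to 3.31 in knockouts and 2.91 to 3.80 in controls, with Insm1, Nkx2-2 and Resp18 among those at 0. Mesenchymal markers (4 of 10 open) summed to 1.36 to 1.83 in knockouts and 1.56 to 1.89 in controls, and endothelial ones (4 of 8) to 1.50 to 2.09 in knockouts and 1.90 to 2.59 in controls. Leukocyte markers (2 of 8 open) summed to 0.699 to 0.784 in knockouts and 0.699 to 1.11 in controls. Among the genes at 0 in these last 3 lists were Col3a1, Pdgfra, Tcf21, Tbx4, Dcn and Acta2, then Pecam1, Cdh5, Tie1 and Emcn, then Ptprc, Csf1r, Itgam, Lyz2 and Cd3e. The open endothelial genes did not move alike: Tek was at 0 in knockouts and 0.519 in controls, Cldn5 at 0.459 and 0.560, Erg at 0.760 and 0.777, and Kdr at 0.467 and 0.452. Of the open leukocyte genes, Cd68 was at 0 in knockouts and 0.242 in controls, and Spi1 at 0.747 and 0.691. The mean sum of the neuronal list was 2.65 in knockouts and 2.29 in controls, the 1 list of the 7 that was higher in knockouts. Within it Tubb3 was at 0.584 in knockouts and 0.195 in controls, Elavl4 at 0.853 and 0.764, and Nefl at 0.125 and 0.0221. Snap25 (0.868 in knockouts, 0.911 in controls) and Nefm (0.223 in knockouts, 0.3996 in controls) had lower means in knockouts. The part of the list in the differences above was not tested.

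A further 53 adhesion genes of axons and synapses outside the 47 were read in the same way, of which 52 were matched by symbol and 47 had a region. Of their 294 regions 69 (23.5%) were higher in knockouts and 51 (17.3%) lower, against 17.0% higher and 20.8% lower of all regions. Their median difference was -0.00312, against -0.0208 over all regions. Higher regions alone were found in 15 of these genes, lower regions alone in 4, both in 13 and none in 15. The greatest rise was at the end of Flrt2, a latrophilin ligand, at chr12:95692101-95692500, with a mean of 0.866 in knockouts and 0.0611 in controls, while a region inside the gene, at chr12:95747304-95747703, was lower, at 0.190 against 0.807 (limma adjusted p = 6.06e-08 and 1.29e-07). Regions at Cbln4 (chr2:171938434-171938833, 97702 bp away), which codes for a secreted neurexin ligand, and at Il1rap (chr16:26702993-26703392) scored 0.778 and 0.769 in knockouts and had no peak in controls (limma adjusted p = 2.79e-08 and 5.36e-08). The latrophilin gene Adgrl2, a teneurin receptor, had 3 higher and 13 lower of 38 regions. Its 2 greatest falls, at chr3:148759471-148759870 and chr3:149067761-149068160, had means of 0 and 0.137 in knockouts, against 0.737 and 0.805 in controls (limma adjusted p = 1.01e-07 and 5.09e-06).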

How the data were processed

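ATAC-seq peaks of EpCAM-selected lung epithelium were analysed in 5 Prdm3/16KO and 6 Control libraries. The authors deposited 1 peak list per library, in which each peak has a summit, a fold enrichment (a ratio over local background) and −log10 p and −log10 q values. DiffBind 3, MACS2, deepTools and the mm10 build are named in the submitters' processing notes, without roles. No counts were used, the depth is unknown, and no interval for counting error can be given.

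Peaks were ranked by −log10 p within the strongest 72935 of each list. Windows of 400 bp were set on summits, keeping the best rank among overlapping ones, and a library had a region if its peak overlapped by at least 100 bp. Genes were the nearest of 21887 protein-coding bodies of the RefSeq annotation GRCm38.p6 to the summit, within 100 kb. Rank scores were compared with limma 3.58.1 (trend and robust options, R 4.3.3) over 83262 regions with Benjamini-Hochberg adjustment, presence with Fisher's exact test (scipy 1.17.1, two-sided), and gene means with limma. The limma step was checked on simulated data. Python 3.11.15, numpy 2.4.6, pandas 2.3.3 and matplotlib 3.10.9 were used. P-values measure the spread between these libraries, which may be technical.

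The members and gene lists were chosen with earlier results of these data known. Values are given for the 12 greatest called falls and rises, the 6 strongest regions open in 1 genotype alone per direction, the strongest end region and every called end region of a gene, and for related genes the 3 greatest falls and rises. Added after the values were seen were the greatest fall and rise of each gene among regions whose scored peaks all have the summit inside, and an alternative that counts no other peaks. Other alternatives were the list length, ranking by fold, a −log10 q of at least 5, the overlap, merged peaks, the number of libraries, centred scores, limma without its options, a replicate block, the distance to the gene, and leaving out each library. Replicate numbers were not used as pairs, since the labels give no shared litter, batch or day. Some marker genes are not reported here by name.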

Additional observations from a re-analysis of the deposited data

Results flagged for a closer look

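In 176 groups of 5 or 6 values, 25 values lay far from the others of their group by Dixon's test at the 95% level. Chance flags about 1 in 20 groups, and a single peak stands apart in any group whose other libraries are at 0.

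Single knockouts with a peak where the other 4 had none were Prdm3/16KO replicate 4 at the Cadm1 region at 47755088 (0.109) and the Tenm1 region at 42700278 (0.327), replicate 3 at the Lrrtm3 region at 63979396 (0.104), and single libraries at the Tenm2 region at 36036345 (0.157) and the Sdk1 region at 141413007 (0.173). The knockout values that stood apart otherwise were 0.674, the lowest, at the Cntn5 region at 9938658, 0 at the Nrxn3 region at 89049241, 0.688, the lowest, at the Cntn2 region at 132538617, and 0.568, the highest, at the Ncam2 region at 81122508. The lowest Lrrtm3 gene mean among knockouts was 0.506.

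Single controls with a peak where the other 5 had none scored 0.102 at the Sdk1 region at 141467958, 0.0578 at the Kirrel3 region at 34474238, 0.259 at the Tenm2 region at 36885631, 0.0756 at the Tenm1 region at 42716845, 0.0627 at the Lrrtm1 region at 77242497, which is also the gene's mean, and 0.125 at Chl1. The lowest control stood apart at the Tenm2 region at 36000486 (0.0341), the Tenm1 region at 42700278 (0.550), the Ntm region at 29850288 (0.381), the Cntnap4 region at 112684521 (0.444), the Nlgn1 region at 26153828 (0.219) and in the Nlgn3 gene mean (0.605). The highest control stood apart at the Tenm3 region at 49357643 (0.773) and in the Cadm4 gene mean (0.484). Each of these values belongs to 1 library, and their cause was not tested.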

How the results depend on the processing

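The number of regions in each direction stayed within 1.5 times its value under most alternatives. Neighbouring windows can read the same peak, so not all 481 regions are separate. With overlapping peaks merged there were 411 regions, 126 higher and 103 lower by limma, against 13962 higher and 16309 lower of all 67655 merged regions. With the lists at 0.5 of their length, the limma calls numbered 66 higher and 57 lower of 220 regions, and the presence calls 42 higher and 20 lower. Of all 42015 regions at that length, limma called 8251 higher and 8978 lower. With regions in at least 6 libraries, which by construction drops regions open in the 5 knockouts alone, the limma calls were 55 higher and 88 lower, so that 61.5% of the called regions were lower in place of 46.6%, the presence calls 11 higher and 21 lower, and the gene means 5 higher and 11 lower. Under that filter 64.4% of the called regions of the whole series were lower, in place of 55.1%. Leaving out 1 library gave 110 to 122 higher and 86 to 101 lower regions by limma, 45 to 52 higher and 16 to 24 lower by presence, and 10 to 13 higher and 6 to 9 lower gene means. Of all 83262 regions, limma then called 12899 to 14225 higher and 15415 to 17366 lower. A smaller group gives Fisher's test fewer reachable p-values.

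Some directions turned. The Ntm region at 29092960 had a difference of 0.129 with lists as deposited, 0.0594 with merged peaks and 0.128 with summits inside the window only, the Tenm2 region at 36000486 had 0.0309 with lists as deposited and 0.0615 with summits inside only, and the Lrrtm3 region at 63971849 had 0.0530 with summits inside only. With the lists at 0.5 of their length the gene means of Cntn2, Cadm4 and Tenm3 differed by 0.104, 0.0725 and 0.105, with Cntn2 and Tenm3 called higher (limma adjusted p = 0.0105 and 0.0291), and with regions in at least 6 libraries those of Cntn5 and Nrcam by -0.0947 and -0.00800. The Cntn2 mean was instead called lower by fold rank (difference -0.134, limma adjusted p = 0.0478) and without Control replicate 5 (difference -0.100, limma adjusted p = 0.0380). For these gene means the cause was not tested. In the shorter lists and among regions in at least 6 libraries some named regions had no match.

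Over all alternatives the comparisons of gene means kept direction and call in 953 cases, lost the call in 40 and gained it in 27, and those of named regions did so in 1970, 110 and 4.

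With the replicate number as a block, 114 regions were higher and 80 lower, and 11 gene means were higher and 6 lower. Of all 83262 regions, 12428 were higher and 15077 lower with that block. The correlations of same-numbered deviations were 0.0517, -0.000482, -0.0234, 0.00416 and 0.139. Of the libraries, 2 of 5 knockouts and 2 of 5 controls correlated best with their own number. Whether some of the numbers pair libraries was not tested.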
